A study of Mus musculus with 2 samples.

Results

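The cornified envelope and late differentiation genes comprised 53 of the 56694 genes counted in P2 mouse epidermis. They were chosen by symbol alone: the 14 Lce1, 6 Lce3, 1 Lce6 and 17 Sprr genes, and 15 genes named singly (Flg, Flg2, Hrnr, Rptn, Ivl, Lor, Kprp, Crct1, Krtdap, Asprv1, Calm4, Casp14, Tgm1, Tgm3 and Elovl3). Of these 53 members, 48 had at least 1 unique molecular identifier (UMI, 1 counted transcript) in the cells kept, 36 had at least 50 over both libraries, and Sprr2c-ps, Sprr2i, Sprr3, Lce3a and Lce3b had 0.

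The data were 1 library from control mice and 1 from Gli2EKO mice, all at postnatal day 2 (P2), so no comparison has a replicate check. Gli2EKO mice carried a K14Cre transgene and Gli2 fl/fl alleles, and Cre was driven by a keratinocyte promoter, which leaves Gli2 intact in dermal and immune cells; controls were floxed littermates lacking Cre, labelled WT. Both libraries came from epidermal whole mounts of back skin that were digested with collagenase and DNase, dissociated with trypsin and passed through a strainer before droplet capture, and how many mice each library pools was not stated. The control library held 71021773 UMIs in 6326 barcodes and the Gli2EKO library 48866478 UMIs in 4296, of which 4464 and 3121 cells were kept, with 3324 and 2317 keratinocytes among them. The libraries shared 0 barcodes, and kept cells had a median of 11829.5 UMIs in control and 11936 in Gli2EKO. The targeted gene, Gli2, gave 83.2 CPM (its UMIs scaled to 1e+06 UMIs of the same cells) in control and 84.8 CPM in Gli2EKO keratinocytes, a log2 ratio of 0.03 (−0.04 to 0.10); the assay counts the 3′ end and the deleted exons are not stated in the sources used here, so this does not check the labels.

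The cornified envelope is the cross-linked protein shell that replaces the plasma membrane of a keratinocyte as it passes from the granular layer into the stratum corneum. Involucrin is laid down early, loricrin, the small proline-rich (SPRR) proteins and the late cornified envelope (LCE) proteins are added, and transglutaminases join them. Filaggrin packs the keratin filaments in the same cells and is later cut by proteases that include caspase-14. Most of these structural proteins are encoded side by side in the epidermal differentiation complex, which lies on chromosome 3 of the mouse.

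In these files 46 of the 53 members lay on chromosome 3, between 91987578 (Lor, ENSMUSG00000043165.8) and 93306749 (the end of Rptn, ENSMUSG00000041984.3) of GRCm39. All 53 were matched by gene identifier. Outside the complex were Tgm3 on chromosome 2, Asprv1 on 6, Krtdap (ENSMUSG00000074199.8) on 7, Casp14 on 10, Calm4 on 13, Tgm1 on 14 and Elovl3 on 19.

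The 250 bases before the start of the canonical transcript of Lor, Lce1m and Krtdap are given. In control, Lor and Lce1m were held almost wholly by a few cells, and Krtdap was the broadest of the abundant members. Capitals mark matches, on either strand, to TATAAA (the TATA box), TGANTCA (an AP-1 site) or CCACCC (a site bound by KLF factors). The windows are chr3:91990450-91990699 for Lor and chr3:92926368-92926617 for Lce1m, both on the minus strand, and chr7:30487077-30487326 on the plus strand for Krtdap, whose annotated gene begins at 30487321, inside the end of its window.
Lor: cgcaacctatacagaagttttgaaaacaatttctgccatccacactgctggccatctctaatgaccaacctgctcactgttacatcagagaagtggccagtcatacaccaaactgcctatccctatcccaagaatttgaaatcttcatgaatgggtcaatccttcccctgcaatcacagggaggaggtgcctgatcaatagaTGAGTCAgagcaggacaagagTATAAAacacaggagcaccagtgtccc
Lce1m: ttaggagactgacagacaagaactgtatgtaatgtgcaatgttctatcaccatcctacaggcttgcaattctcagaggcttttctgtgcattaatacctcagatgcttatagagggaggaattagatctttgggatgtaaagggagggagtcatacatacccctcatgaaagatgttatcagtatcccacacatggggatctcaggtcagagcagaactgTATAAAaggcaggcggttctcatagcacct
Krtdap: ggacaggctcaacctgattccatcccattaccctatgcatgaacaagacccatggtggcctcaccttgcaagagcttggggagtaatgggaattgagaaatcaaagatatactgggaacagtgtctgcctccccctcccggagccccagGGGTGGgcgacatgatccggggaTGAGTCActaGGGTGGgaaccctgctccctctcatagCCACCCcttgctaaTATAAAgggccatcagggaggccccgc
Each of the 3 holds 1 TATAAA; Lor and Krtdap also hold 1 TGANTCA each, and Krtdap holds 3 CCACCC. Over windows from 250 bases before to 50 after the start, TATAAA was in 17 of the 36 members with at least 50 UMIs (47.2%) and in 13.2% of 21770 protein-coding genes. TGANTCA was in 9 of the 36 (25.0%) against 7.14% of all, and CCACCC in 11 of the 36 (30.6%) against 32.5%. The 14 Lce1 genes had TATAAA in 2, TGANTCA in 0 and CCACCC in 1 of their windows. A match describes the letters of a window only.

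Before the levels are compared, 2 features of the cells have to be stated. First, 8 control cells and 4 Gli2EKO cells had over 10% of their UMIs in members. The 8 control cells had 59.7, 49.1, 45.4, 41.8, 41.6, 33.3, 31.6 and 20.5%, and the next control cell had 5.12%. The 4 Gli2EKO cells had 15.3, 15.1, 10.9 and 10.8%, and the next had 5.56%. All 12 fell into the suprabasal-like class of the interfollicular epidermis (IFE), and results that rest on them are given with and without them; the limit of 10% was set after these values were seen, and since it uses the members it describes the cells and tests nothing. Second, some of these barcodes had like content. The control cells of 33.3 and 31.6% differed by a chi-square of 1.22 per degree of freedom over 344 genes, and the Gli2EKO cells of 15.3 and 15.1% by 1.19 over 125 genes. Among 595 pairs of control suprabasal-like cells of 30000 to 42000 UMIs, with the cells over 10% left out, the lowest value was 2.83 and the median 10.9. Among 703 such pairs of Gli2EKO suprabasal-like cells of 8000 to 12000 UMIs the lowest was 1.06 and the median 13.2. Over the whole class, 10 of 28028 control pairs (19 cells) and 4 of 52479 Gli2EKO pairs (7 cells) were under 1.5, of which 1 pair in each library was among the cells over 10%. Whether each such pair is 1 cell under a pair of barcodes was not tested.

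Member UMIs were far more concentrated in the control library. Kept control cells held 235865 member UMIs and kept Gli2EKO cells 154813. In control, 6 cells carried the first 50% of them, against 74 cells in Gli2EKO. The top 1% of cells held 73.5% (73.4 to 73.7%, 45 cells) in control and 33.7% (33.4 to 33.9%, 32 cells) in Gli2EKO; intervals in parentheses are exact 95% intervals and cover counting error only. The highest control cell held 34373 member UMIs, 14.6% of its library's, and the highest Gli2EKO cell 5913 (3.82%). The cells over 10% held 131658 UMIs (55.8%) in control and 13519 (8.73%) in Gli2EKO. At the other end, 1365 control cells (30.6%) and 739 Gli2EKO cells (23.7%) had no member UMI.

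**Figure D1:**
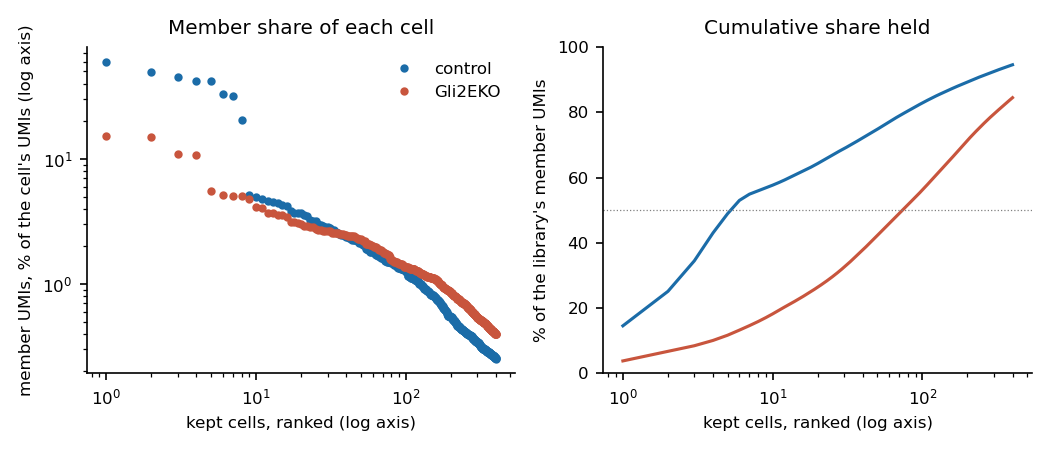
Left, the share of each kept cell's UMIs in the 53 members, with cells ranked by it; right, the cumulative share of the library's member UMIs, with cells ranked by their member UMIs; rank and left vertical axes are logarithmic, and the dotted line marks 50%. The 8 control cells above 20% stand clear of the rest, and the control curve passes 50% at 6 cells against 74 in Gli2EKO.

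How many keratinocytes stood above a limit on the member share depended on the limit. Over 1% of their UMIs in members were 126 control keratinocytes (3.79%, 3.17 to 4.50%) and 168 Gli2EKO keratinocytes (7.25%, 6.23 to 8.38%). Over 2% were 53 and 60 cells. Over 5% were 9 (0.271%, 0.124 to 0.513%) and 8 (0.345%, 0.149 to 0.679%), with overlapping intervals, and 8 control and 7 Gli2EKO kept cells lay between 4 and 6%. These intervals count the cells of 1 library each, so no difference between genotypes was read from them at any limit. Over 20% were 8 control cells (0.241%, 0.104 to 0.474%) and 0 of 2317 Gli2EKO keratinocytes, an exact interval of 0 to 0.159%.

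Members fell into groups by how they were spread over cells. Lor, the gene of loricrin, had 26463 UMIs in control and 2038 in Gli2EKO, of which the 8 control cells held 95.9% and the 4 Gli2EKO cells 45.8%. Crct1, a cysteine-rich gene of the complex, had 11037 and 919 UMIs, with 97.6 and 71.7% in the same cells. Lce1m had 12040 and 179 UMIs, with 98.5% in the 8 control cells and 0% in the 4 Gli2EKO cells. The same holding by few control cells was seen in every Lce1 gene, where the 8 cells had between 97.1 and 99.3% of the UMIs of Lce1a1, Lce1a2, Lce1b to Lce1i, Lce1l and Lce1m, and 97.7 and 97.9% of those of Lce1j and Lce1k. Lce6a (935 and 43 UMIs), Kprp (758 and 41), Lce3c (270 and 10), Flg2 (2121 and 284) and Hrnr (1924 and 393) had 94.9 to 98.3% of their control UMIs there. Flg2 and Hrnr encode filaggrin-like proteins that carry an S100 domain.

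Flg was held by few cells in both genotypes. Its 10 cells with most UMIs had 84.9% of 20302 control UMIs and 86.8% of 9792 Gli2EKO UMIs, and the cells over 10% had 78.1 and 56.7%. Asprv1, the protease that cuts profilaggrin, had 9729 and 3998 UMIs, with 71.6 and 20.5% in the cells over 10%.

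Krtdap, a secreted protein of differentiating keratinocytes, was the broadest of the abundant members. It had 64378 UMIs over 1829 control cells and 94441 over 1733 Gli2EKO cells, and its top 10 cells held 14.8 and 10.6%. Calm4, a calmodulin-like calcium-binding protein, had 33397 and 31202 UMIs with 33.1 and 24.1% in its top 10 cells. Casp14 had 1064 and 905 UMIs, with 25.0 and 22.1% in its top 10 cells. Sprr1a (3527 and 4441), Sprr1b (572 and 837) and Ivl (459 and 351) were held by small numbers of cells, but not by the 8 control cells, which had 0.0567, 0 and 0.654% of their UMIs. Tgm3, a transglutaminase, was the most evenly spread of the 36, with 8.31% of 1600 and 7.54% of 1552 UMIs in its top 10 cells.

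**Figure D2:**
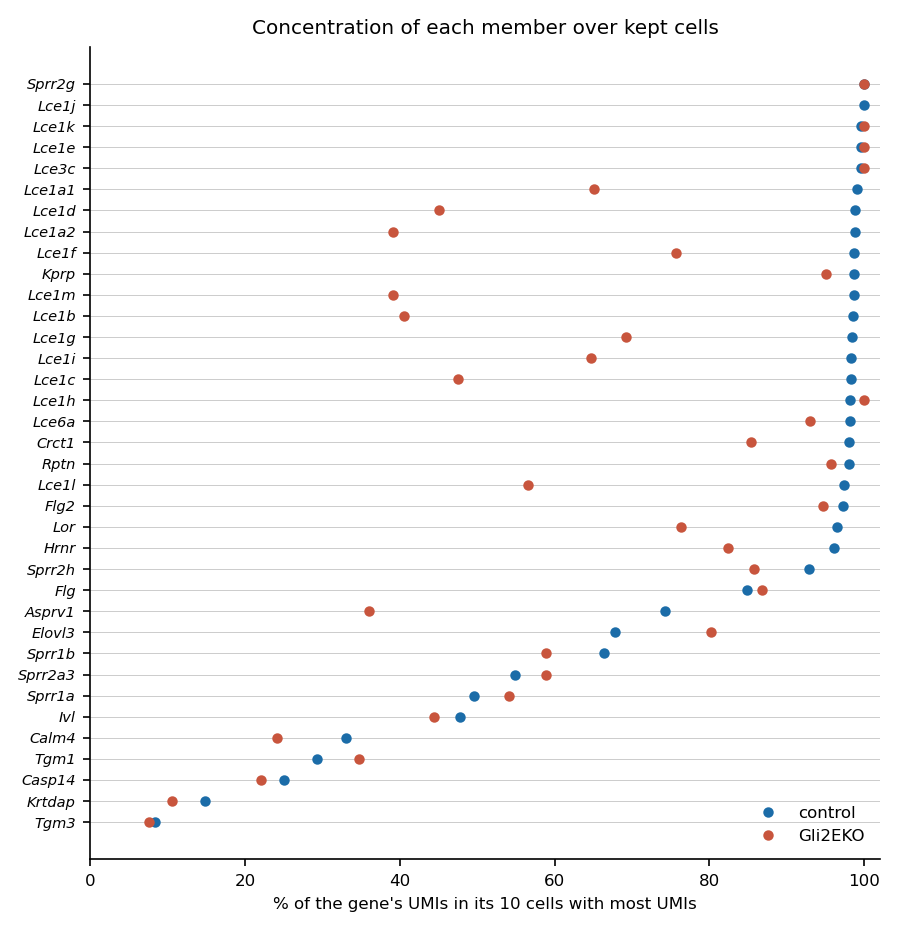
Each point gives the share of 1 member's UMIs found in its 10 cells with most UMIs, in control (blue) or Gli2EKO (red), for the 36 members with at least 50 UMIs; a member with 0 UMIs in a library has no point there. Lce1, Lce6a, Kprp, Lor and Crct1 reach 96.5% or more in control, while Tgm3 and Krtdap stay under 15%.

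The 8 control cells had almost no UMIs of the suprabasal keratins. Krt1 and Krt10, the keratins of the spinous and granular layers, summed to between 0.00239 and 0.153% of their UMIs, and Krt1 stood at 52.1 CPM over the 8 cells against 14309 CPM in the other control suprabasal-like cells. Their depth ran from 10451 to 82591 UMIs and 1214 to 6370 genes, with 0.258 to 2.35% mitochondrial UMIs. In the order of member share given above, Lor had 5226, 4035, 4346, 696, 6168, 2537, 1734 and 649 UMIs per cell. The summed Lce1 genes had 9703, 5547, 11046, 839, 15531, 6754, 4897 and 291, and Crct1 2297, 2183, 1227, 214, 3126, 928, 663 and 134. All 8 held each of these, and the lowest values were in the cells of 41.8 and 20.5%, which were also the shallowest. Sprr1a had 2 UMIs in 1 of these cells and 0 in the other 7, and Ivl had 3 in 1 and 0 in the other 7.

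The 4 Gli2EKO cells were unlike these and fell in pairs. Those of 15.3 and 15.1%, the pair of like content, had 1 UMI each of Krt1 and Krt10 together, 9.78 and 9.51% mitochondrial UMIs and 11187 and 8995 UMIs in all. They held 317 and 270 UMIs of Sprr1a, 288 and 253 of Crct1, 151 and 87 of Flg2, 32 and 37 of Lor and 63 and 50 of Lce1 genes. Sprr1a, which gave at most 2 UMIs in the 8 control cells, was thus among the leading members of these. Those of 10.9 and 10.8% had 1523 and 1087 UMIs of Krt1 and 1670 and 1913 of Krt10. They held 2278 and 2792 UMIs of Flg and 245 and 620 of Lor, with 0 and 1 of Lce1 genes. In Gli2EKO suprabasal-like cells the Lce1 genes reached at most 266 UMIs, in a cell outside the 4 with 593 UMIs of Krt1 and 804 of Krt10.

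In fibroblasts, which should lack these genes, the levels were low and alike in both libraries. Lor gave 6.87 CPM (5.38 to 8.65) in control and 7.06 CPM (5.21 to 9.37) in Gli2EKO fibroblasts. The Lce1 genes gave 12.2 and 13.4 CPM, Flg 9.35 and 12.1, Crct1 2.10 and 2.21, and Krtdap 38.1 and 39.0. Outside the interfollicular classes, other keratinocytes had 12.9 and 10.1 CPM of Lor and 13.2 and 13.0 CPM of Lce1. In immune and endothelial cells the libraries were less alike, with Lor at 6.64 and 7.36 CPM but Krtdap at 39.0 (28.6 to 51.9) and 178 CPM (148 to 213) and Calm4 at 28.2 and 80.9 CPM.

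Over all keratinocytes the summed members differed by little. They gave 5083 CPM in control and 4579 CPM in Gli2EKO, a log2 ratio of Gli2EKO over control of −0.15 (−0.16 to −0.14), and over all kept cells 3974 and 3679 CPM, a ratio of −0.11. Without Lor the keratinocyte ratio was 0.0027. Without the cells over 10%, it turned to 0.90 (2246 and 4191 CPM). The members did not share 1 direction: of 36 with at least 50 UMIs, 21 were at least 2-fold higher in control, where 3.01% of 15639 genes were, and 5 at least 2-fold higher in Gli2EKO, where 1.37% were. The median over the 36 was −3.21 and that over all genes −0.14, but only 26 members pass 50 UMIs without the cells over 10%.

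The 21 higher in control were all 14 Lce1 genes and Lor, Lce6a, Lce3c, Kprp, Crct1, Flg2 and Hrnr, the members held by the 8 control cells. The 5 higher in Gli2EKO were Krtdap, Elovl3, Sprr1b, Sprr2a3 and Sprr2g. Krtdap gave 1384 CPM in control and 2799 CPM in Gli2EKO keratinocytes (1.02, 1.00 to 1.03), and Sprr1b 12.3 and 24.8 CPM (1.02, 0.86 to 1.17). Calm4 gave 719 and 924 CPM, a ratio of 0.36 (0.34 to 0.38), and Flg 437 and 289 CPM, a ratio of −0.60 (−0.63 to −0.56). Without the cells over 10%, 26 members were counted, 6 were at least 2-fold higher in Gli2EKO (Krtdap, Elovl3, Sprr2a3, Sprr2h, Lce1f and Hrnr, against 1.38% of genes) and 0 in control (2.75% of genes), and the median over members was 0.60. In the suprabasal-like class, 1 Gli2EKO cell held 266 of these 366 remaining Lce1 UMIs, and 1 held 45 of 162 Hrnr UMIs. How far the Lce1f and Hrnr calls rest on such cells was not tested. Lor, again without the cells over 10%, was at 21.5 and 31.3 CPM (0.54, 0.42 to 0.67). Flg was at 94.3 and 124 CPM (0.39, 0.33 to 0.46), so over all keratinocytes both turned direction. Within the suprabasal-like class without those cells, Flg stayed lower in Gli2EKO (−0.42, −0.48 to −0.36). Lor was at 0.23 there, and 1 Gli2EKO cell held 278 of its 745 UMIs.

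The libraries also held different numbers of interfollicular cells. Suprabasal-like cells were 240 of 3324 control keratinocytes (7.22%, 6.36 to 8.15%) and 329 of 2317 Gli2EKO keratinocytes (14.2%, 12.8 to 15.7%), and basal-like cells 346 (10.4%) and 554 (23.9%). Weighting the Gli2EKO clusters by their control shares moved the summed keratinocyte ratio from −0.15 to −0.87. In a library of dissociated cells, more cells of a class and a different recovery of that class cannot be told apart.

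Levels within the suprabasal-like class set the share of that class aside. The class was named from Krt1, Krt10, Krt77, Sbsn, Dmkn, Mt4, Dsc1 and Dsg1a, none of them a member. Of these, Mt4 went against the name in control, at 40.7 CPM in the class and 83.0 CPM over all keratinocytes. In Gli2EKO it was at 83.9 and 80.8 CPM. Mt4 was also among the leading genes of a matrix/progenitor-like and of the hair shaft-like cluster. Members were kept out of the genes used for clustering. Krt10, Krt1, Lor and Calm4 led the class. Its 10 leading genes also included Krt16, a marker of the companion layer, and Cst6, which is in the late differentiation list read below. Summed members gave 38104 CPM (37940 to 38267) in control and 16647 CPM (16552 to 16743) in Gli2EKO, a log2 ratio of −1.19. Without the cells over 10% they gave 14901 and 14978 CPM, a ratio of 0.01 (−0.01 to 0.02). The cells in the middle of the class were alike as well: the median cell had 0.982% of its UMIs in members in control (10th to 90th percentile 0.240 to 2.69%, 232 cells) and 0.999% in Gli2EKO (0.352 to 2.50%, 325 cells), again without the cells over 10%.

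Per gene, 35 members were counted in this class. At least 2-fold higher in control were 23, where 3.14% of 10092 genes were, and at least 2-fold higher in Gli2EKO was 1, Sprr2g, where 0.634% were. The median over the 35 was −4.31, beside −0.08 over all genes; it is a description, since only 20 members pass 50 UMIs without the cells over 10%, and with a minimum of 1 UMI it was −1.67. Lce1m gave 2168 CPM in control and 11.1 CPM in Gli2EKO (−7.61, −7.96 to −7.29), Lor 4723 and 238 CPM (−4.31, −4.38 to −4.24) and Crct1 1983 and 106 CPM (−4.23, −4.34 to −4.12). Flg2 was at −3.27, Hrnr at −2.72, Lce6a at −4.92, Kprp at −4.86 and Lce3c at −6.83 (3 Gli2EKO UMIs, −9.12 to −5.27). Flg and Asprv1 joined them, at −1.42 and −1.92. For Sprr2g the ratio was 6.11 (3.60 to 11.4), from 1 control and 89 Gli2EKO UMIs, and the cells over 10% held 84.4% of its 90 UMIs in Gli2EKO.

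Without the cells over 10%, 20 members were counted in the class and most calls ended. Rptn was at least 2-fold higher in control (46 and 27 UMIs, −1.19, −1.94 to −0.48), where 2.51% of genes were, but 19 of its 46 control UMIs lay in 1 cell. With the highest cell of each library left out Rptn was at −0.79 (−1.69 to 0.08), which ends that call. Lce1a1, Lce1a2, Lce1b and Lce1m were at least 2-fold higher in Gli2EKO, where 0.591% were, but 1 cell carried this. The summed Lce1 genes had 67 UMIs in control and 366 in Gli2EKO (2.03, 1.65 to 2.42), of which 266 lay in 1 Gli2EKO cell with 5.12% of its 20015 UMIs in members. That cell also held 278 of 745 Lor UMIs. With the highest cell of each library left out, the Lce1 ratio was 0.21 (−0.25 to 0.69). Without this 1 Gli2EKO cell alone, 16 members were counted, and 0 were at least 2-fold higher in Gli2EKO. Crct1 and Rptn, 2 of the 16, were at least 2-fold higher in control, where 2.51% of genes were with that cell left in. The median over these 16 was −0.24. The median over the 20 members was −0.14, beside −0.11 over all genes.

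The members spread over many cells were at like levels in both genotypes. Krtdap gave 8830 CPM in control and 9607 CPM in Gli2EKO without the cells over 10% (0.12, 0.10 to 0.14) and Calm4 3882 and 3489 CPM (−0.15, −0.18 to −0.13). Casp14 gave 117 and 102 CPM (−0.20, −0.36 to −0.04) and Asprv1 406 and 328 CPM (−0.31, −0.39 to −0.22). The intervals of all 4 leave out 0, but they cover counting error only, with no spread between mice. Flg gave 774 and 579 CPM (−0.42, −0.48 to −0.36) and Lor 91.9 and 107 CPM (0.23, 0.06 to 0.39). With the highest cell of each library left out Lor turned to −0.21 (−0.40 to −0.01). Ivl gave 51.5 and 32.9 CPM (−0.65, −0.91 to −0.39), and Crct1 16.6 and 12.5 CPM (−0.41, −0.85 to 0.04), whose interval spans 0. With the highest cell of each library left out Crct1 was at −0.79 (−1.37 to −0.21).

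Among the SPRR genes, which encode cross-bridging proteins of the envelope, Sprr1a gave 477 and 401 CPM without the cells over 10% (−0.25, −0.33 to −0.17) and 450 and 482 CPM with them (0.10, 0.02 to 0.17). Sprr1b gave 103 and 115 CPM without them (0.16, 0.00 to 0.32). Sprr2a3 gave 9.48 and 17.9 CPM (0.92, 0.43 to 1.42). Of the 17 Sprr genes 5 passed 50 UMIs; Sprr2a1 and Sprr2a2, with 2 and 1 UMIs in all, share every 89-base window of their last 400 bases with Sprr2a3 or each other, so the split of reads over these 3 genes is uncertain. Sprr2a3 shares 63.1% of its windows, Lce3c 36.9%, Lce1e 17.0%, Lce1a1 12.2% and Lce1d 10.9%, while 26 of the 36 members with at least 50 UMIs share none.

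**Figure D3:**
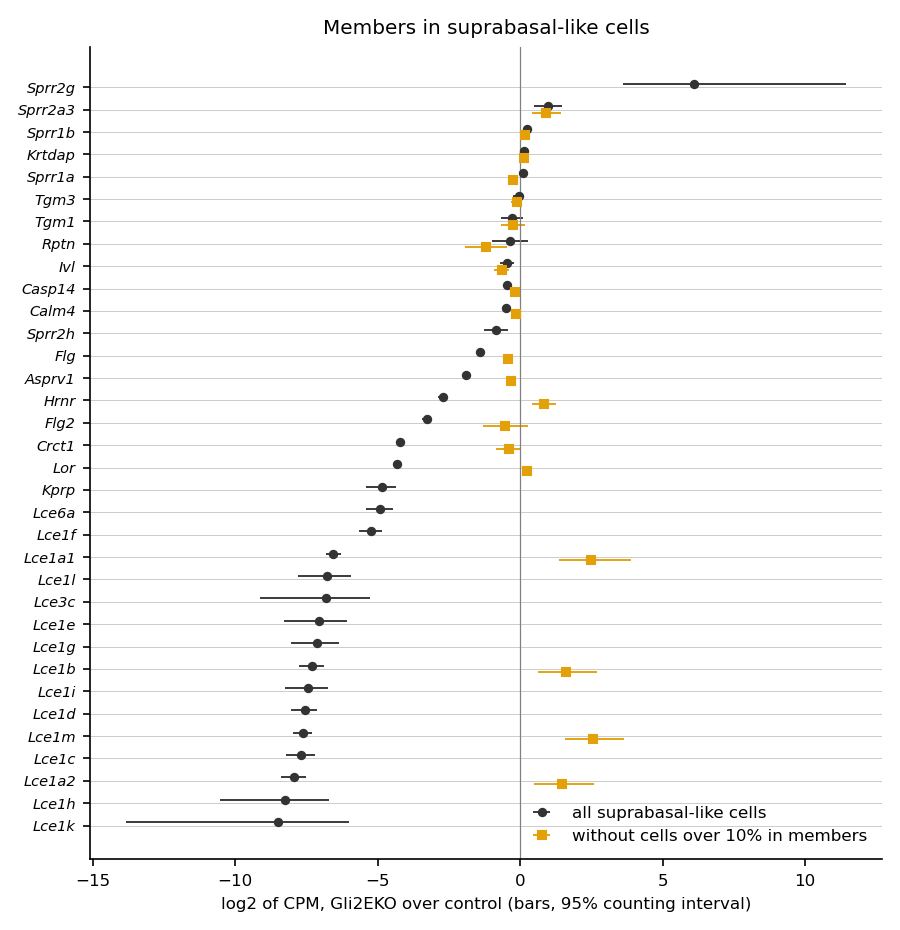
Log2 ratio of CPM, Gli2EKO over control, for members with at least 50 UMIs in suprabasal-like cells, with exact 95% counting intervals; dark circles use all cells of the class and yellow squares leave out cells with over 10% of their UMIs in members. Lce1j, with 0 Gli2EKO UMIs, is not drawn, and members under 50 UMIs without those cells have no square. Lor moves from −4.31 to 0.23 and Crct1 from −4.23 to −0.41, while Krtdap stays at 0.13 and 0.12.

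The transglutaminases that join the envelope proteins differed little. Tgm1, the membrane-bound enzyme, gave 17.2 and 14.6 CPM without the cells over 10% (−0.24, −0.67 to 0.19). Tgm3 gave 76.6 and 70.2 CPM (−0.13, −0.32 to 0.07). Both intervals include 0. Tgm3 went against the name of the group, since basal-like cells had more of it per UMI than suprabasal-like cells, 161 against 72.7 CPM in control and 114 against 69.9 CPM in Gli2EKO.

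Elovl3, a fatty acid elongase, stood apart from the name of the group. It had 9 control and 10 Gli2EKO UMIs in suprabasal-like cells and 1180 and 1774 in sebaceous gland (SG)-like cells, where it gave 1180 CPM (1113 to 1249) over 43 cells and 2185 CPM (2085 to 2289) over 26 cells. Its 2-fold higher level over all Gli2EKO keratinocytes, 29.1 against 58.7 CPM, thus lay mostly in this small class. In hair shaft-like cells Elovl3 gave 43.3 CPM (89 UMIs) in control and 237 CPM (145 UMIs) in Gli2EKO.

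Outside the IFE and the SG, the members were low. Summed, they gave 554 CPM in control and 1274 CPM in Gli2EKO HF2 outer root sheath (ORS)-like cells, 475 and 1147 CPM in inner root sheath (IRS)-like cells and 196 and 625 CPM in companion layer-like cells, so all 3 were higher in Gli2EKO. Hair shaft-like cells went the other way, at 851 and 484 CPM. Krtdap made up most of the HF2 ORS-like level, at 371 and 1040 CPM, and in IRS-like cells it gave 66.2 and 379 CPM. Sprr1a was at 133 CPM in control and 339 CPM in Gli2EKO IRS-like cells. In HF1 ORS-like cells the members gave 124 and 154 CPM, near the 95.2 and 101 CPM of fibroblasts, and in immune cells 114 and 353 CPM, with 92 and 46 cells behind them. Whether doublets or free RNA add to these levels was not tested.

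**Figure D4:**
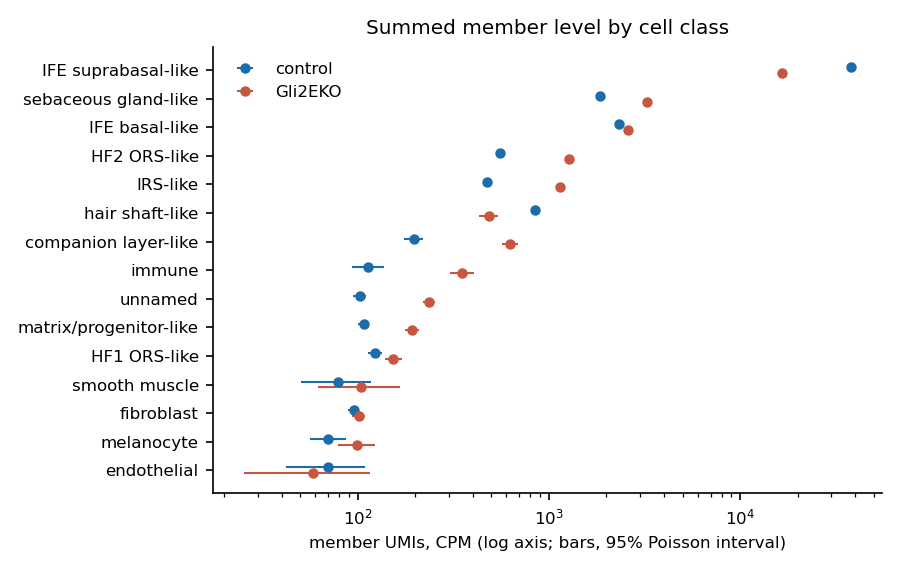
Summed CPM of the 53 members in each cell class, on a logarithmic axis, for control (blue) and Gli2EKO (red), with exact 95% Poisson intervals. Suprabasal-like cells are highest in both libraries at 38104 and 16647 CPM, and fibroblasts are at 95.2 and 101 CPM.

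Shares of cells with a UMI, after each cell was thinned to 2000 UMIs, gave the same picture of the broad members. Krtdap was found in 91.7% (87.4 to 94.8%) of control and 97.6% (95.3 to 98.9%) of Gli2EKO suprabasal-like cells, and in 98.3 and 98.8% before thinning. It was also in 81.2 and 87.2% of basal-like cells. In immune and endothelial cells it was in 11.3 and 14.5% (33.0 and 28.6% before thinning), which marks the background; median depths were 9886 and 11056.5 UMIs there and 20464.5 and 19040 in suprabasal-like cells. Over all keratinocytes Krtdap was in 25.0% (23.6 to 26.5%) of control and 49.1% (47.0 to 51.2%) of Gli2EKO cells, and Calm4 in 16.7 and 26.8%. The thinned shares left out 5 control and 13 Gli2EKO keratinocytes. Lor was found in 8.75% (5.50 to 13.1%) of control and 6.08% (3.75 to 9.23%) of Gli2EKO suprabasal-like cells, with 2.61 and 1.82% in immune and endothelial cells. Before thinning the Lor shares were 37.9% of 240 and 25.5% of 329 cells in the class and 6.96 and 8.93% in the background. The intervals of the thinned shares overlap, and the control share is the higher where Lor CPM without the cells over 10% is the lower, so no order was read from them.

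To see at which stage each member was found, IFE cells were ranked by Krt1 and Krt10 over Krt5 and Krt14, which are not members, and cut into 5 equal parts per library from the most basal (part 1) to the most suprabasal (part 5), with the cells over 10% kept apart. Keeping them apart was chosen after seeing the data. Over the 8 control cells, Krt1, Krt10, Krt5 and Krt14 had 16, 29, 19 and 19 UMIs. The place of these cells in the order thus rests on few UMIs, and no stage was read from it. In the planned form, which left the cells over 10% in, 7 of the 8 control cells fell in part 4 and 1 in part 5. Of the 4 Gli2EKO cells, 2 fell in each of these parts. Lor was then at 10522 CPM in part 4 and 365 CPM in part 5 of control, and at 29.2 and 373 CPM in Gli2EKO. With them apart, Krtdap was present from the start, at 1621, 1431, 1973, 4915 and 11900 CPM over parts 1 to 5 in control and 1719, 1820, 2127, 5680 and 12019 CPM in Gli2EKO. Calm4 followed, at 294, 395, 505, 1284 and 5791 CPM in control and 352, 250, 372, 1299 and 4861 CPM in Gli2EKO. Both genes were highest in part 5 and next highest in part 4 in both genotypes, while the order of parts 1 and 2 differed between genotypes.

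Flg stayed under 30 CPM up to part 4 in both libraries and reached 1334 CPM in control and 956 CPM in Gli2EKO in part 5. Lor went from 15.0 to 150 CPM and from 8.23 to 173 CPM between parts 4 and 5. Lce1 genes were at 31.3 (24.3 to 39.8, from 67 UMIs), 13.4, 10.9, 12.6 and 11.5 CPM over parts 1 to 5 in control, highest in part 1 and elsewhere near the 12.2 CPM of fibroblasts. In Gli2EKO they were at 10.9, 19.8, 8.65, 13.1 and 79.4 CPM, and 1 cell held most of the UMIs of part 5. In the cells over 10%, Flg was at 51606 CPM in control and 47721 CPM in Gli2EKO, Lor at 82613 and 8026 CPM, and Lce1 at 177674 and 980 CPM. These 8 and 4 cells were chosen by their members, and the Gli2EKO values pool pairs of unlike content. The levels therefore describe these cells only, and no likeness or difference between genotypes was read from them. Sprr1b (169 and 166 CPM) and Ivl (73.4 and 38.7 CPM) were highest of the 5 parts in part 5, and the 8 control cells had 0 and 9.76 CPM of them. Tgm3 had another course, at 147, 185, 121, 67.8 and 102 CPM over parts 1 to 5 in control and 129, 116, 89.1, 46.3 and 96.8 CPM in Gli2EKO, with the lowest level in part 4 of both.

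**Figure D5:**
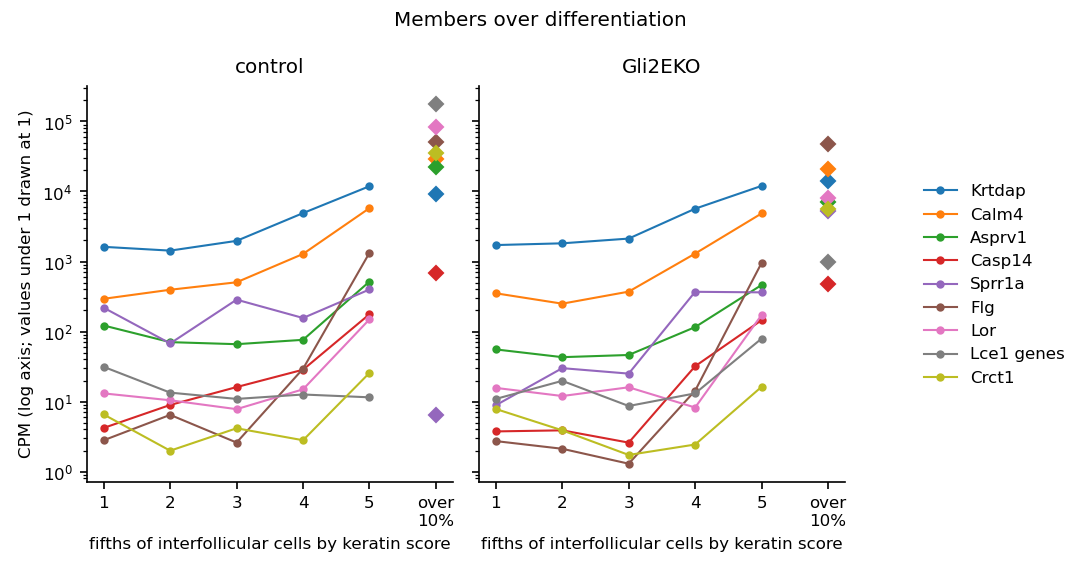
CPM of 8 genes and of the summed Lce1 genes in IFE basal-like and suprabasal-like cells, cut into 5 equal parts per library by the ratio of Krt1 and Krt10 to Krt5 and Krt14 UMIs; diamonds are the 8 control and 4 Gli2EKO cells with over 10% of their UMIs in members, the vertical axis is logarithmic and values under 1 are drawn at 1. Krtdap and Calm4 are highest in part 5 of the 5 parts in both libraries, and Lce1 reaches 177674 CPM in the 8 control cells.

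Other genes of late differentiation were counted from a list of 55, of which 54 were found. Without the cells over 10%, 51 could be counted in the suprabasal-like class, 4 were at least 2-fold higher in Gli2EKO, where 0.591% of 9976 genes were, and 3 in control, where 2.51% were. Their median log2 ratio was −0.22, beside −0.11 over all genes. Krt1 and Krt10 were at 0.02 and −0.10. All genes that named the class are in this list, and they were not kept out of the clustering as the members were. Levels of Krt1, Krt10, Krt77 and Mt4 in the class are thus not independent of how it was drawn. Higher in Gli2EKO were the protease inhibitor Stfa1 (1.00, 0.97 to 1.03), the metallothionein Mt4 (1.65, 1.38 to 1.93), S100a9 (1.09, 0.45 to 1.77) and 2310050C09Rik (1.53, 0.69 to 2.45). The UMIs of 2310050C09Rik, 15 and 58, lay in 10 control and 7 Gli2EKO cells, the highest Gli2EKO cells holding 25 each, and without the highest cell of each library it was at 1.16 (0.14 to 2.29). S100a9 had 28 and 80 UMIs, with 33 of the 80 in 1 cell, and went to 0.73 (−0.04 to 1.54) with the highest cell of each library left out. Higher in control were the suprabasal keratin Krt77 (−1.55, −1.65 to −1.45), cornifelin Cnfn (−1.33, −1.55 to −1.11) and Nccrp1 (−2.53, −3.69 to −1.51, from 43 and 10 UMIs). Stfa1 and Krt77 were spread over many cells, with a highest cell of 573 of 32334 and 149 of 2565 UMIs.

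The 8 control cells carried some late genes and lacked others. Against the other control suprabasal-like cells, 13 of 51 listed genes were at least 2-fold higher in them and 21 at least 2-fold lower, where 5.34% of 8313 genes were higher and 64.6% lower. The corneodesmosome gene Cdsn gave 882 against 12.0 CPM, Cnfn 973 against 96.1, Nccrp1 1412 against 8.32 and the lipoxygenase Aloxe3 137 against 4.06. The gene 2310050C09Rik, which lies inside the differentiation complex, gave 8964 against 2.90 CPM. All 10 genes of a dissociation stress list were lower, with a median log2 ratio of −2.55, beside −1.34 over all 8313 genes, and the list took 0.0574 to 0.260% of the UMIs of these cells, against 0.633% in the other control suprabasal-like cells and 0.706 to 1.36% in the 4 Gli2EKO cells. Between genotypes 0 of the 10 stress genes passed 2-fold in the suprabasal-like class. Of 10 cell cycle genes, 0 of which passed 2-fold between genotypes there, 4 were higher in the 8 cells and 3 lower, and 1 of the 8 cells held 85 UMIs of that list against 5 or fewer in the other 7.

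Within the chromosome 3 interval, 35 genes are not members. In all suprabasal-like cells 6 of them could be counted, of which 4 were at least 2-fold higher in control (Prr9, 2310046K23Rik, 2210017I01Rik and 2310050C09Rik, against 3.14% of all genes) and 0 in Gli2EKO (0.634%). Without the cells over 10%, 4 could be counted, with 2310050C09Rik higher in Gli2EKO (0.591% of all genes) and Prr9 higher in control (2.51%). The 10 genes outside the members with the highest ratio between the cells that carried the first 50% of member UMIs and the other suprabasal-like cells were 2310050C09Rik (log2 ratio 6.32), Fmo2 (5.73), Lnx1 (5.32), Smpd3 (5.13), Ly6m (4.95), Il18 (4.89), Krt71 (4.88), Aif1l (4.82), Cpa4 (4.80) and Ecm1 (4.71). These cells were 6 in control, all suprabasal-like, and 74 in Gli2EKO, of which 73 were suprabasal-like. The pooled ratio stands for neither library: 2310050C09Rik was at 8.81 in control and 4.73 in Gli2EKO, and Ecm1 at 7.71 and 0.25. For all of the 10 genes but Krt71 the ratio was higher in control, and Krt71 was at 3.09 and 6.21. Krt71, an inner root sheath keratin, had 3830 UMIs in the 74 Gli2EKO cells, 98.4% of them in 1 cell.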

How the data were processed

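The authors processed 10x 3′ reads of dissociated P2 epidermis with Cell Ranger 9.0.1 against GRCm39 and deposited filtered matrices of UMI counts, raw and in whole numbers. All CPM, percent and log2 values were computed here. Cells were kept with over 1000 and under 8000 genes and under 15% mitochondrial UMIs, the limits of the study, and the 8% with the highest Scrublet score per library (scanpy 1.11.5, expected rate 0.06) were removed, a setting chosen because the automatic threshold marked unequal numbers. The study used scDblFinder, which was not run here. Kept cells were clustered in Seurat 5.3.0 (R 4.3.3) on 2000 variable genes without the members, 20 principal components, Harmony written anew and Louvain at resolution 0.5; clusters were named from fixed markers and need not match those of the study. A name needed a score of at least 1 and 3 markers in at least 10% of cells.

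No test was made, since each genotype has 1 library. UMIs were summed per class and library; CPM carry exact Poisson, ratios exact conditional binomial and shares Clopper-Pearson intervals at 95%. A member needed at least 50 UMIs in the sum of both libraries to be counted, and was called past 2-fold with 0.5 UMIs added. The interval script was tested on simulated data. Every member with a UMI could be named; other named genes came from the late differentiation, stress and cell cycle lists, the annotated genes between the outermost members, and the 10 genes most enriched in the cells with the first 50% of member UMIs. The members, lists and the limit of 10% were chosen with earlier results of these data known. Coordinates, promoters and shared windows come from a later GENCODE release of GRCm39. Alternatives changed the filters, doublet removal, clustering, minimum of UMIs, scaling and the cells entered. Of the windows read, 1 is not reported here.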

Additional observations from a re-analysis of the deposited data

Results flagged for a closer look

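Barcodes left out by the filters, 1862 in control and 1175 in Gli2EKO, entered no comparison. They had 1234 Sprr1a UMIs in control (106 CPM) and 3952 in Gli2EKO (582 CPM), and the Gli2EKO value was singled out because it is above that of the control's left-out barcodes. A single Gli2EKO barcode with 8162 genes, 94362 UMIs and 1.56% mitochondrial UMIs, over the limit of 8000 genes, held 3506 of the 3952 (88.7%), and 398 of the 508 Crct1 UMIs left out in that library. Without it 446 Sprr1a UMIs remained, fewer than the 1234 of control. Whether this barcode is a single cell was not tested.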

How the results depend on the processing

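Of 74 alternative values, 29 kept their direction within the interval or the 1.5-fold range, 35 moved and 10 turned direction. The summed keratinocyte log2 ratio of −0.15 turned to 0.31 as a mean of single-cell CPM, 1.19 without the top 1% of cells, 0.0027 without Lor and 0.90 without cells over 10%; it was −0.0595 with every deposited barcode, −0.10 with no doublet removal or without 1 barcode of each like pair, and −0.87 with clusters weighted as in control. Over all kept cells, −0.11 became −0.0174 with every barcode, −0.0464 with no doublet removal, −0.14 with the automatic doublet threshold and 0.93 without cells over 10%. In suprabasal-like cells, −1.19 turned to 0.0542 with every barcode, 0.26 without the top 1%, 0.0649 in cells with at least 1% Krt1 and Krt10 UMIs and 0.0074 without cells over 10%; it was −1.22 with no doublet removal and with the automatic threshold, −1.23 with member UMIs left out of the total, −0.89 as a mean of cells, −1.02 without Lor, −0.10 at resolution 0.8, −1.24 without integration and −1.15 without 1 of each like pair. With every barcode, keratinocytes were set by marker UMIs and the class, too, by at least 1% Krt1 and Krt10 UMIs. All 8 control cells over 10% lay below that share. This setting and the Krt1 and Krt10 class therefore left them out by definition. At resolution 0.8, 0 of the 8 were in the class as well, and the cause was not tested. From 240 and 329 cells the class shrank to 191 and 268 with every barcode and 152 and 247 at resolution 0.8. In the Krt1 and Krt10 class it shrank to 153 and 221. The count of 24 members past 2-fold there became 7 with every barcode, 3 without the top 1%, 5 at resolution 0.8, 6 in the Krt1 and Krt10 class and 5 without cells over 10%, and the keratinocyte count of 26 became 6 without them. The suprabasal median of −4.31 became 0.0750 in the Krt1 and Krt10 class, −1.67 with a minimum of 1 UMI and −0.14 without cells over 10%. The top 1% share of 73.5% in control and 33.7% in Gli2EKO became 74.1 and 38.5% with every barcode, 72.5 and 33.1% with no doublet removal, 73.2 and 33.1% with the automatic threshold, 90.2 and 66.0% for the top 5%, and 44.6 and 29.7% without cells over 10%. A limit of 2% in place of 5% gave 1.59 and 2.59% of keratinocytes. Leaving out cells over 10% or 1 barcode of each like pair was chosen after seeing the data. No paired analysis was possible because each genotype has 1 library. Depth limits members under 50 UMIs, for which no ratio was read.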

Other observations

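Prr9, a proline-rich gene of the chromosome 3 complex, gave 56.8 CPM in control and 66.4 CPM in Gli2EKO over all keratinocytes, and 95.9 and 24.0 CPM in suprabasal-like cells. Mt4 gave 83.0 and 80.8 CPM over all keratinocytes and 40.7 and 83.9 CPM in suprabasal-like cells.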
